A study of Vitis vinifera with 3 samples.

Results

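CHG losses inside gene models are the stretches of gene-containing DNA where methylation of CHG cytosines was higher in young grapevine berries than in ripening or ripe ones. CHG stands for a cytosine followed by any base but G and then by G. The members were the regions in the CHG lists of véraison and of maturity, each against first growth, that lay on a numbered chromosome, overlapped a gene model, and had a higher average level at first growth. There were 2169 such regions at véraison and 2569 at maturity, 4738 in all, out of 16538 CHG regions in these lists and 377997 regions of the CG, CHG and CHH contexts in the 9 deposited tables. The members were thus chosen by the measured CHG levels of these same libraries, so the direction and size of the losses are a description and were not tested.

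All berries came from Vitis vinifera cultivar Fujiminori, with no treatment named. They were picked at first growth, 40 days after flowering, at véraison, 65 days, when berries soften and colour, and at maturity, 90 days. Each stage was 1 whole-genome bisulfite library of fruit DNA, so there was no test between stages, and a difference between stages cannot be told apart from a difference between libraries. Whole fruit holds several tissues, and a lower level in the same cells cannot be told apart from another mix of cells. Both comparisons also share the first growth library, so they are given side by side and neither supports the other. The files used here hold levels without read counts, so the depth of each region is unknown. Intervals in percent are exact Clopper-Pearson 95% intervals and cover counting error over regions only, and neighbouring regions are not independent.

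CHG methylation in plants is kept by chromomethylases, enzymes that bind chromatin carrying a repressive methyl mark on histone H3 and methylate the nearby DNA, which in turn attracts the histone methyltransferase. The loop keeps transposable elements silent, and in Arabidopsis a histone demethylase keeps it out of the bodies of expressed genes. CHG sites read CNG on both strands, so each site has a cytosine on either strand 2 bases apart. Grapevine genes often have long introns that hold transposable elements, so a region inside a gene model need not lie in coding sequence. Exons, introns and UTRs were not marked in the files used here. Whether starts count from 0 or 1, and on which genome build, was not given in the sources used here.

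Regions chosen as losses began at intermediate CHG levels and ended at low ones. At véraison the members had a median level of 34% at first growth (quartiles 22 and 50%) and 14% at véraison (6 and 22%), a median difference of -20 percentage points. At maturity the medians were 37% (23 and 54%) and 15% (7 and 24%), a difference of -22 percentage points. The losses covered 437 kb of DNA at véraison, in 1625 gene models, and 579.1 kb at maturity, in 1798 gene models. A full loss was uncommon, with 102 of 2169 members listed at 0% at véraison and 120 of 2569 at maturity.

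The levels carry the mark of a filter. In all 9 tables, every region differed at least 2-fold between its libraries once rounding to 1 percentage point is allowed for. The members therefore had to keep at most about 50% of their first growth level, and the median member kept 42.5% at véraison and 42.1% at maturity. The quartiles were 28.6 and 47.5% at véraison and 28.6 and 47.6% at maturity. Losses smaller than 2-fold, which in highly methylated DNA can still be many percentage points, are therefore missing from these numbers.

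**Figure D1:**
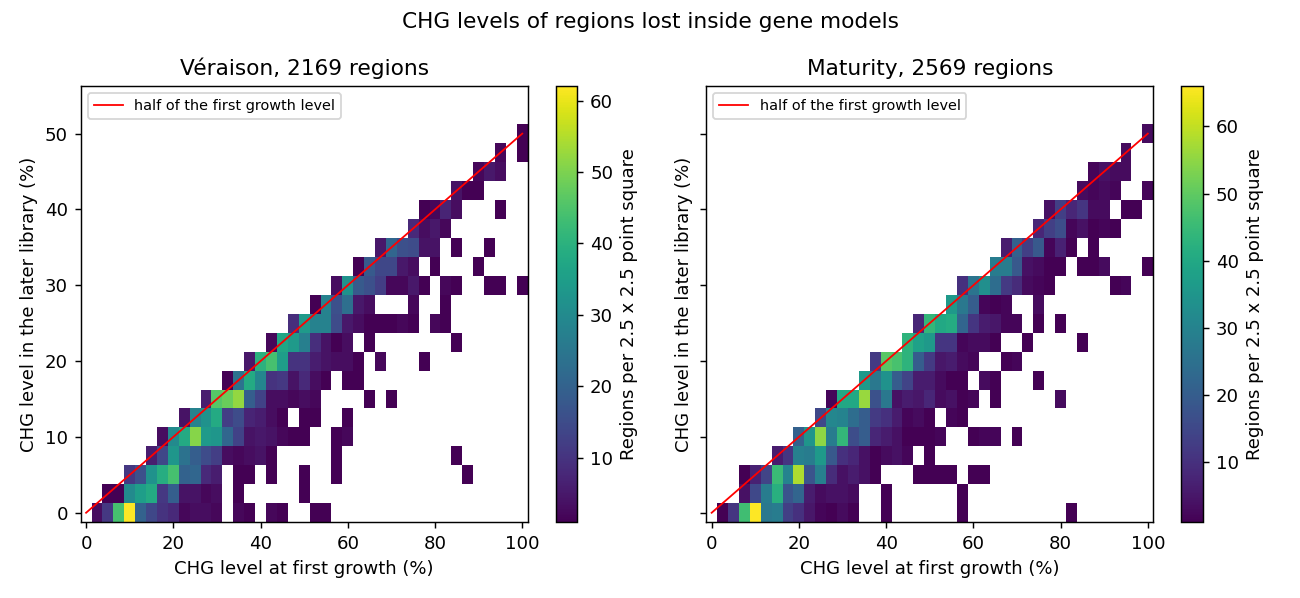
Each square counts members by their CHG level at first growth (horizontal axis, percent) and in the later library (vertical axis, percent), at véraison on the left and maturity on the right. No region lies above the red line at 2-fold loss beyond rounding.

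Members with a higher starting level also ended higher. The 2-fold limit caps the later level by the starting level, so this pattern is partly set by the choice of members. At véraison 855 members started between 20 and 40%, and their median was 11% later. Another 442 started under 20% and had a median of 2% afterwards. The 54 members that started at 80% or more had a median of 40% at véraison. They were also short, with a median of 92 bp, compared with 200 bp for those starting between 20 and 40%. At maturity 104 members started at 80% or more, with the same later median of 40%.

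The rule reaches down to very small differences. The smallest losses were 2 percentage points, from 3 to 1%, in a region on chromosome 12 (12668737 to 12668898) and one on chromosome 5 (18916603 to 18916708) at véraison. Just outside the rule, the smallest gains inside gene models were 3 percentage points at véraison, as on chromosome 13 (17255514 to 17255595, 1 to 4%), and 4 percentage points at maturity.

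The largest losses lay in short stretches of high starting methylation. On chromosome 2 (3790479 to 3790541), in a plus-strand gene model of 0.795 kb, CHG methylation stood at 88% in young berries and 4% at véraison. CG methylation of the same place, listed from 3790467 to 3790599, was 71% at first growth and 11% at véraison, and an almost equal CG region (3790474 to 3790599) had 7% at véraison and 40% at maturity. The second largest loss at véraison lay on chromosome 12 (15850340 to 15850402), with 86% at first growth and 8% later, over 63 bp. The next 3 lay on chromosome 8 (21870009 to 21870089, 100% and 30%), chromosome 16 (13204867 to 13204908, 94% and 31%) and chromosome 4 (20661217 to 20661294, 84% and 22%). All 5 were at most 81 bp long, and the number of reads behind each is unknown.

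The largest losses at maturity included longer regions. On chromosome 7 (12876632 to 12876778), in a minus-strand model of 3.12 kb, CHG methylation was listed at 82% in young and 0% in ripe berries. On chromosome 8 (3919458 to 3919805), in a model of 3.90 kb, the stages in turn had 79, 85 and 15%, so the lower level appeared after véraison. That region also had one of the smallest p-values among maturity losses in the authors' deposited table, 1.0801e-27. The CG region around it (3919430 to 3920053) had 65, 87 and 23%. On chromosome 1 (17030529 to 17030628) the stages had 80, 46 and 15%, lower each time. The others were on chromosome 15 (4871444 to 4871553, 100% and 33%) and chromosome 10 (1046922 to 1047061, 86% and 22%).

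Other members were named for their p, their length or a large loss over a longer stretch. Among véraison losses of at least the median length with no level at 0 or 100%, the largest were on chromosome 6 (8629685 to 8629872, 93% and 34%; 17408407 to 17408734, 77% and 21%) and chromosome 15 (20110694 to 20110864, 79% and 25%). The last of these also lay in a CG region (20110672 to 20111089) whose stages had 85, 40 and 42%. At maturity the same rule named the chromosome 8 region above and a pair of others on that chromosome (809427 to 809618, 94% and 30%; 21869905 to 21870091, 92% and 29%). The last overlaps the véraison loss from 21870009 to 21870089. The smallest p in the authors' deposited table among véraison losses was 2.28552e-22, for a region of 495 bp on chromosome 1 (6144724 to 6145218) that had 43% at first growth and 12% at véraison. A nearly identical region there (6144724 to 6145216) had 18% at maturity. Next in the authors' deposited table came chromosome 18 (13991585 to 13991903, 27% and 8%, p 6.37438e-19), inside a CG region with 38% and 19%, and chromosome 1 (757114 to 757734, 41% and 14%, p 3.43922e-18). The latter's first part, to 757538, had 20% at véraison and 44% at maturity in the list of that pair. Among maturity losses the smallest was 9.36436e-28, for 377 bp on chromosome 17 (4840231 to 4840607), with 54% and 23%. A maturity loss on chromosome 2 (3099844 to 3100324, 61% and 30%) followed the chromosome 8 region in the authors' deposited table, with p 2.25281e-23. The longest losses were 1013 bp on chromosome 4 at véraison (2005548 to 2006560, 26% and 10%), 991 bp on chromosome 5 at véraison (12278000 to 12278990, 46% and 18%), 1046 bp on chromosome 4 at maturity (23860029 to 23861074, 52% and 22%) and 1071 bp on chromosome 14 at maturity (21335067 to 21336137, 43% and 21%).

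Gene models held more losses than gains in both comparisons. Of 3415 CHG regions in gene models at véraison, 63.5% (interval 61.9 to 65.1%) were losses, compared with 59.5% of all listed CHG regions on numbered chromosomes. At maturity the share was 68.8% (67.3 to 70.3%) of 3736, compared with 60.2% of all. Outside gene models the shares were 56.6% and 53.5%. The rule used these contrasts, so nothing is read from the excess itself. On the 19 chromosomes the share of losses in gene models ran from 53.8 to 70.3% at véraison and from 58.8 to 78.4% at maturity, and was above the share outside models on 16 and 19 of them.

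Losses inside and outside gene models differed in level more than in proportion. Losses outside gene models started higher, at a median of 43% (véraison) and 45% (maturity), and ended at 18% and 17.5%. They lost 25 and 27 percentage points, but kept 43.8% and 42.4% of the starting level, close to the members' share, as the 2-fold limit bounds both. High starting levels made up a smaller share inside gene models, with 2.49% of members at 80% or more at first growth for véraison and 4.05% for maturity, compared with 8.61% and 8.27% outside. Gains inside gene models were almost the mirror of the losses, from 11 to 31% at véraison and from 12 to 31% at maturity.

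Loss shares by gene model length looked different in the pair of comparisons, though no test of that difference was possible with 1 library a stage. At véraison, losses made up about the same share of CHG regions in gene models of every length, from 63.4% (60.1 to 66.6%) in models under 5 kb to 60.1% (55.4 to 64.7%) in models of 40 kb or more. At maturity the share climbed with length, from 54.6% (51.2 to 57.9%) under 5 kb through 66.9%, 72.9% and 75.8% to 77.4% (73.6 to 81.0%) in models of 40 kb or more. The numbers moved both ways: models under 5 kb held 555 losses and 320 gains at véraison and 472 losses and 393 gains at maturity, whereas models of 40 kb or more held 265 and 176 at véraison and 405 and 118 at maturity.

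The share of losses at maturity against véraison also climbed with length. The rule did not use that list, but it used both libraries, each against first growth, so this climb is no separate support. Losses were 43.0% (39.6 to 46.4%) of CHG regions in models under 5 kb and 65.8% (61.5 to 69.9%) in models of 40 kb or more. They were 54.9% (53.2 to 56.6%) of those in all gene models and 50.3% of all listed CHG regions of that pair. Models of 20 kb or more had a higher share of losses than models under 5 kb on 18 of 19 chromosomes for maturity against first growth, on 18 of 19 for maturity against véraison, and on 7 of 19 for véraison against first growth. Both of these contain the mature library, so they are not independent, and its stage and its library cannot be told apart. Counted once per region, the median length of the gene model around a member was 11.6 kb at véraison and 14.7 kb at maturity. For gains it was 11.7 and 8.93 kb.

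**Figure D2:**
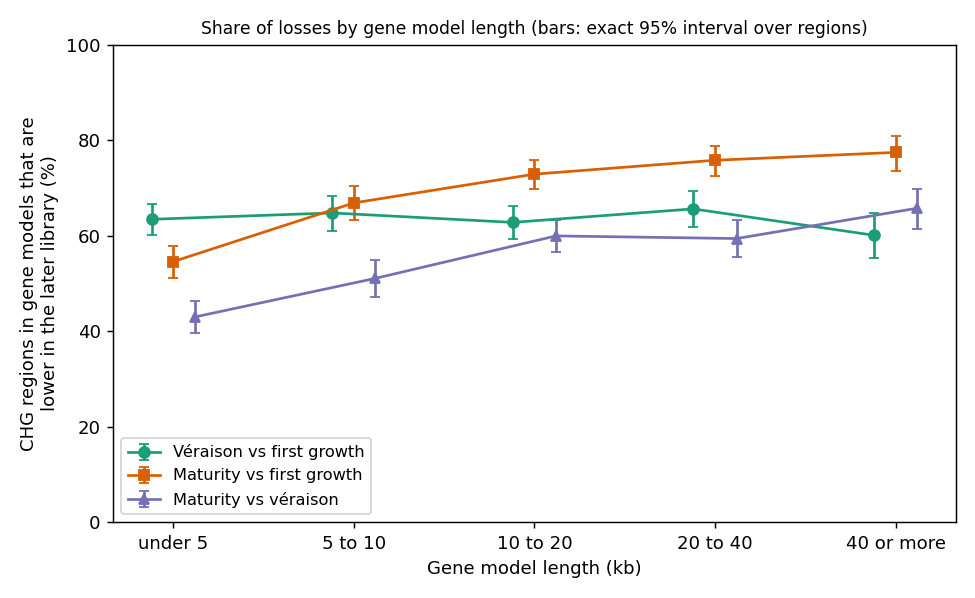
The vertical axis is the share of CHG regions in gene models that were lower in the later library (percent), and the horizontal axis is the length class of the gene model (kb), with exact 95% intervals over regions as bars. The line for véraison against first growth stays between 60.1 and 65.6%, and both lines with maturity climb from the shortest to the longest class.

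Starting levels also climbed with gene model length. Losses at véraison began at a median of 29% in models under 5 kb and 40% in models of 40 kb or more, and ended at 11 and 17%. At maturity the starting medians were 31 and 43%. Gains in the same length classes also started higher in long models, at 9 and 16% for véraison and 11 and 19% for maturity. Distance from the nearer end of the model gave a like picture. At maturity, 54.8% of CHG regions within 1 kb of an end were losses, compared with 78.1% of those 5 to 10 kb inside. At véraison the shares were 61.8 and 63.7%. Within models of 20 kb or more at maturity, the share was 69.1% (58.9 to 78.1%) within 2 kb of an end and 77.1% (74.6 to 79.4%) deeper, and these intervals overlap.

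Along the gene model, losses were spread through the body, with the lowest share in the last of 5 equal parts. Nearly all members lay wholly within their model, 97.1% at véraison and 97.7% at maturity, and plus-strand and minus-strand models held 1102 and 1067 of them at véraison. Counted by midpoint in 5 equal parts from the start, 20.1, 23.2, 20.3, 20.0 and 16.2% of véraison losses fell in each part in turn. At maturity the shares were 18.6, 24.0, 23.3, 19.6 and 14.5%. Gains had 19.02 and 19.18% in the final part. Counted by distance, losses were not consistently fewer at the end. The first and last 1 kb held 372 and 357 losses at véraison and 311 and 337 at maturity, midpoints just outside the model included. Per kb of the models with a CHG region, losses at véraison ran from 0.308 in models under 5 kb to 0.0226 in those of 40 kb or more, a fall that must arise in part because a short model is listed only if it holds a region.

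**Figure D3:**
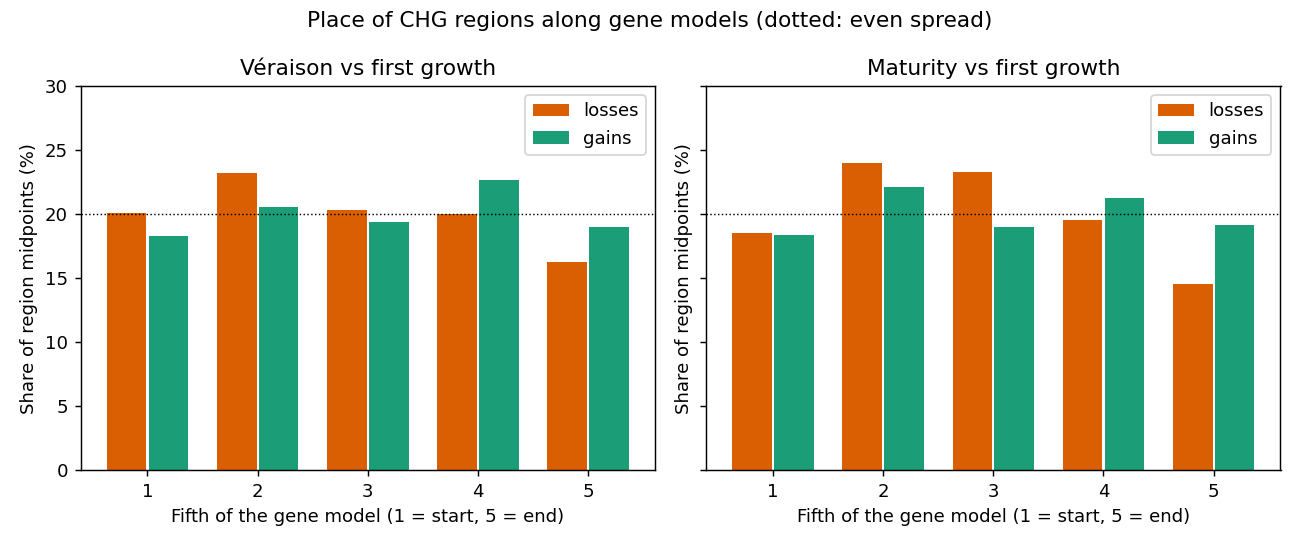
Bars give the share of region midpoints (percent) in each of 5 equal parts of the gene model, read in the direction of its strand, for CHG losses and gains, with a dotted line at an even spread of 20%. Losses have their lowest bar in the final part, at 16.2% (véraison) and 14.5% (maturity).

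Most gene models held a single loss. At véraison 1231 of 1625 models had 1 member, 290 had 2 and 104 had 3 or more, and at maturity the numbers were 1312, 320 and 166 of 1798. Losses and gains often shared a model: of 654 models with several CHG regions at véraison, 310 held losses alone, 92 gains alone and 252 a mixture. At maturity the counts were 398, 125 and 231 of 754. Among the other, non-overlapping CHG regions of a model with a loss, 67.2% were losses at véraison and 79.2% at maturity. For models with a gain, 60.5% and 63.2% of the other regions were losses. Over all CHG regions in gene models the shares were 63.5 and 68.8%, as above. Long models hold more regions and so weigh more in these shares, and no clustering of losses is read from them.

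The model with most losses at véraison was VIT_12s0055g00710.t01, on the minus strand of chromosome 12 (13830585 to 13880287, 49.7 kb). Its 8 losses began between 14 and 36% and ended between 7 and 18%. Their midpoints lay in groups 3.63 to 4.12, 27.3 to 28.2 and 45.6 to 45.9 kb from the model's start, and gains stood between them, from 38 to 80% at 38.4 kb and from 10 to 20% at 6.27 kb. At maturity the same model had 5 losses and 2 gains, and CG regions were not listed in it in any comparison. Overlapping entries left 6 separate losses of the 8.

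The model with most losses at maturity was VIT_17s0119g00350.t01, on the plus strand of chromosome 17 (14000843 to 14084518, 83.7 kb). It held 10 losses, none overlapping another, the first with its midpoint 31.7 kb from the start and the last ending at 14080963, and 1 gain, from 29 to 59%, at 26.3 kb. The losses began between 23 and 71% and ended between 9 and 34%, and the largest was from 71 to 34%. At véraison this model had 5 losses and 3 gains. It too held no listed CG region. In it 12 CHH regions were higher at véraison and 12 at maturity than at first growth, and the chromosome 12 model had 20 and 12. Of all listed CHH regions 99.6 and 99.4% were higher, so these counts are no trait of the models.

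Dense losses also occurred in shorter models. On chromosome 13, a minus-strand model of 5.68 kb (24246252 to 24251927) held 5 entries at véraison that began between 65 and 75% and ended between 32 and 36%, but they joined into 2 places within 24247902 to 24248065. Another on chromosome 13, of 12.7 kb (16143325 to 16156038), held 7 entries at maturity, from between 40 and 79% to between 16 and 39%, which joined into 3 places, and 5 entries at véraison. On chromosome 9, a model of 7.81 kb (1372877 to 1380682) held 6 entries at maturity in 5 places, of 18 to 38 percentage points, and none at véraison. On chromosome 19, a model of 12.2 kb (4583507 to 4595750) had 6 entries at véraison in 3 places, of 13 to 21 percentage points, but 1 loss and 3 gains at maturity and 5 gains between véraison and maturity.

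Some entries describe the same DNA more than once. At véraison 393 of 2169 members (18.1%) overlapped another member, and joining them left 1964 places, while at maturity 444 of 2569 overlapped and 2339 places were left. Of the 215 overlapping pairs at véraison, 59 were shifted by exactly 2 bp at their start or end, compared with 7 shifted by 1 or 3 bp. At maturity 66 of 242 were shifted by 2 bp and 6 by 1 or 3 bp. That is the distance between the cytosines of one CHG site on its opposite strands, and whether strands were listed separately was not given in the sources used here. In 10 véraison pairs and 7 maturity pairs both ends were shifted by 2 bp. On chromosome 4, for instance, the entry from 18119613 to 18119954 had 63% at first growth and 31% at véraison, and its partner had 54 and 26%. The levels of such partners differed by up to 9 percentage points at first growth and up to 5 in the later library. Both entries of a pair had to be listed as losses, so partners that differed more could be missing. They also come from the same libraries, so their closeness is no measure of repeatability.

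Where CG methylation was listed in the same place, it was lower as well, with 1 exception at each stage. Of the véraison losses, 156 (7.19%, interval 6.14 to 8.36%) overlapped a listed CG region, and 145 of the 146 CG regions they met were lower at véraison, compared with 81.2% of all listed CG regions. At maturity 145 losses (5.64%, 4.78 to 6.61%) overlapped 147 CG regions, and 146 of these were lower, compared with 79.3%. These are 3.26 and 3.05% of the CG lists. The CG regions went from a median of 32.5 to 14.5% at véraison and from 31 to 13% at maturity, a median change of -18 percentage points each time. Gains met 52 and 71 CG regions, of which 49 and 68 were higher. CHG losses outside gene models met 349 and 336 CG regions, of which 348 and 330 were lower, so the shared direction is not particular to gene models.

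Among losses that overlapped a CG region, ranked by the CHG difference alone, the chromosome 2 and chromosome 8 regions above came first. On chromosome 4, CHG methylation went from 79 to 16% at maturity (20661157 to 20661224) within a CG region that went from 59 to 24%, and the véraison entry beside it (20661217 to 20661294) lay in a CG region that went from 83 to 41%. On chromosome 19 (12246585 to 12246767) CHG went from 65 to 9% at maturity and CG from 48 to 19%. Over the 171 véraison pairs in which both were lower, the CHG difference was larger in 88 and the CG difference in 65, and at maturity in 76 and 67 of 162.

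Among the losses inside gene models, joint loss of CHG and CG was listed mostly in short models. In models under 5 kb, 19.3% of véraison losses (16.1 to 22.8%) and 20.8% of maturity losses (17.2 to 24.7%) overlapped a CG region. The share was 6.58 and 5.68% in models of 5 to 10 kb and 0.377% (0.00955 to 2.08%) at véraison in models of 40 kb or more. At maturity it was 0 of 405 there, which allows a share of up to 0.741% taken as 3 counts of the total, with an exact upper limit of 0.907%. The listed CG regions themselves were concentrated in short models: 58.8% of the 1290 in gene models at véraison and 58.9% of 1430 at maturity lay in models under 5 kb, and 10 and 12 regions in models of 40 kb or more. CHG gains overlapped CG regions in 11.6 and 11.7% of cases in models under 5 kb and in 0 of 176 and 0 of 118 in the longest, with exact upper limits of 2.07 and 3.08%. Outside gene models, 13.5% of CHG losses at véraison and 13.3% at maturity overlapped a CG region.

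**Figure D4:**
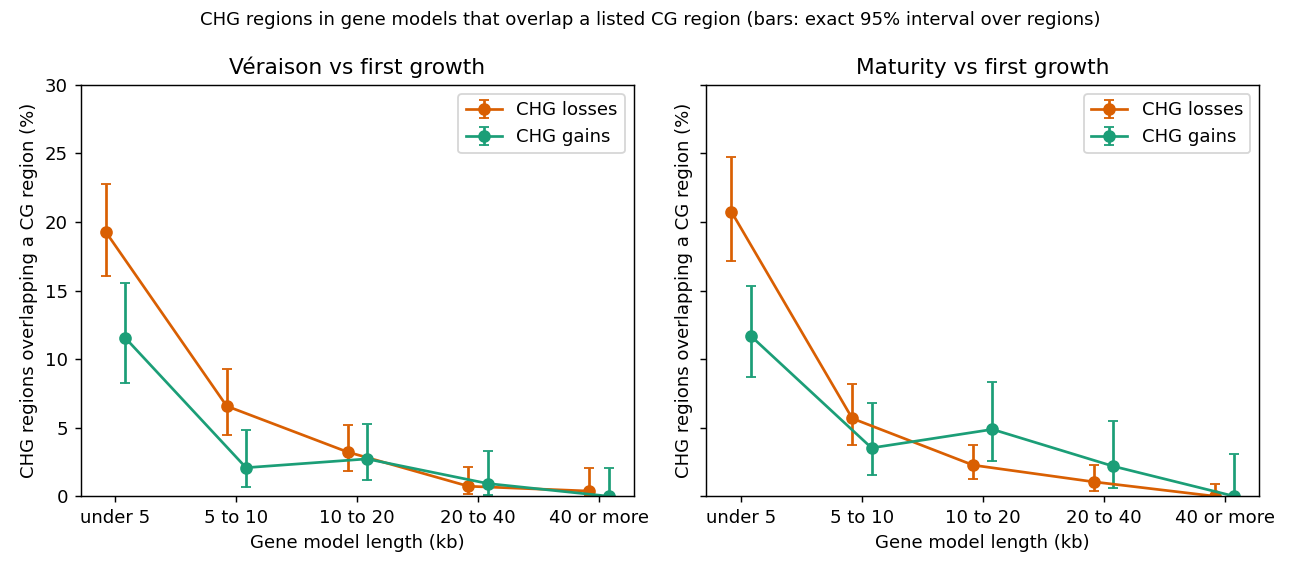
Points give the share of CHG losses and gains in gene models that overlap a CG region of the same pair of stages (percent) by gene model length class (kb), with exact 95% intervals over regions as bars. For losses the share drops from 19.3% (véraison) and 20.8% (maturity) in the shortest class to 0.377 and 0% in the longest.

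The other contexts were also counted over whole gene models. In models whose CHG regions were all losses, 88.5% of 218 CG regions at véraison and 87.6% of 209 at maturity were lower, compared with 77.7 and 74.2% of all CG regions in gene models. These counts include the CG regions that overlap the losses themselves, 126 and 121 of them. Of the other 92 and 88 CG regions in those models, 73.9 and 70.5% were lower, near the share for all gene models. In models whose CHG regions were all gains, 36.7% of CG regions were lower at both stages, and 71.1 and 65.5% of those that overlapped no gain. CHH methylation, at cytosines with no G in either of the next places, was listed in 584 of the 1373 véraison models with losses alone, where 2520 of 2541 CHH regions were higher at véraison. In such models at maturity 2441 of 2471 were higher. Of all listed CHH regions 99.6% were higher at véraison and 99.4% at maturity, so these counts lie near the background and are no result about the models.

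CHH regions seldom coincided with the losses themselves. At véraison 35 losses (1.61%, 1.13 to 2.24%) overlapped a CHH region, compared with 4.98% of gains in gene models and 5.99% of losses outside them. At maturity the shares were 1.32, 5.23 and 6.08%. Of the 43 CHH regions met at véraison 33 were higher and 10 lower, and at maturity 33 were higher and 13 lower of 46. Lower CHH regions were thus more frequent here than over all listed CHH regions, of which 99.6 and 99.4% were higher. CHG losses outside gene models showed the same, so it is no trait of losses inside them. Of the CHH regions those losses met, 33 of 168 were lower at véraison and 48 of 182 at maturity. The reason was not tested. Gains in gene models met 66 and 58 CHH regions, all higher. The members that met CHH regions were long, with medians of 309 and 320 bp.

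A few members could be followed through all stages, because a second table listed the same start and end. Each set is fixed by which tables list a region, so its shape is partly a choice and its size says nothing of how common that shape is. The 60 members listed as losses at both stages had stage medians of 36.5, 12 and 10.5% in turn, and in 50 regions the véraison and mature levels lay within 5 percentage points. None of the regions in gene models listed in both tables with equal ends went opposite ways. To do so, a region had to lie at least 2-fold above the shared first growth level at one stage and 2-fold below it at the other. No agreement of the stages is therefore read from this. Another 29 véraison losses were also listed between véraison and maturity, and all were higher again at maturity. Their medians were 29, 9 and 28%, and 20 of them ended within 5 percentage points of first growth. The third set held 75 maturity losses also listed between véraison and maturity, with medians of 45, 42 and 19%. Of these, 62 were within 5 percentage points of first growth at véraison.

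Among the 60, the largest summed loss was on chromosome 4 (20661615 to 20661687), at 81, 36 and 26%, in the same model as the chromosome 4 losses above that overlapped CG regions. Next came chromosome 15 (12625423 to 12625674), at 75, 34 and 18%, and the region on chromosome 15 from 20110694 to 20110864, at 79, 25 and 36%. On chromosome 7 (6376098 to 6376153) the stages had 49, 3 and 4%, and on chromosome 10 (6437282 to 6437450) it was 53, 18 and 6%.

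**Figure D5:**
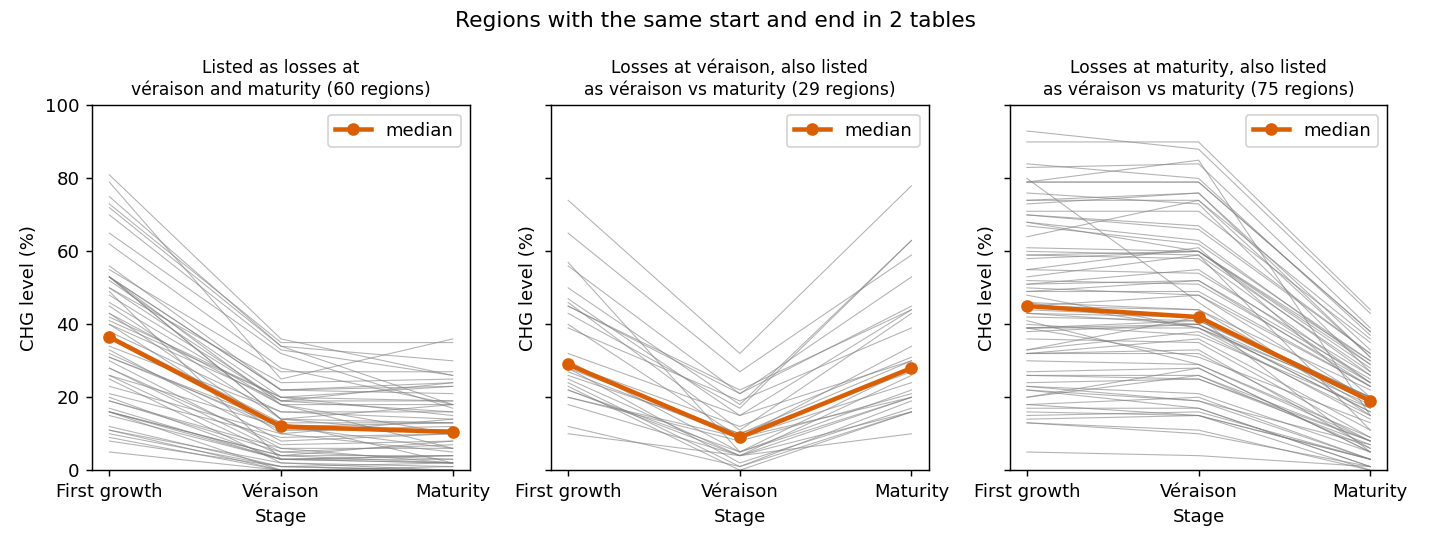
Each grey line is 1 region and the orange line the median CHG level (percent) at first growth, véraison and maturity, for regions with equal start and end in 2 tables. The medians run 36.5, 12 and 10.5% in the left panel, 29, 9 and 28% in the middle and 45, 42 and 19% on the right.

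Entries outside the numbered chromosomes in these lists came from the mitochondrion. The mitochondrion had 6 CHG entries at véraison, 5 of them lower, and 13 at maturity, all lower. Their median was 3% at first growth and 2 and 1% later, and the largest differences were -15 and -2 percentage points.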

How the data were processed

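Bisulfite libraries of berry DNA, 1 per stage, were sequenced as paired ends after adaptor addition, per the labels' protocols. The submitters' processing notes name BSMAP 2.73 without its role. The region caller, coverage filter, build and annotation were not given in the sources used here. Per the file headers, the authors deposited average methylation levels as fractions from 0 to 1 with a chi-square value for 2 libraries. All of these lie at or under 0.00999823, so the deposited column was read as p-values, with no adjustment stated.

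Levels were multiplied to percent. Differences are later minus earlier stage. Regions count as overlapping when they share at least 1 bp. Lengths include both ends. Gene model lengths come from the coordinates listed with each region. Of 9490 gene model identifiers, 0 matched the 29591 genes of the reference list for assembly ASM3070453v1, so gene names, functions and functional lists were not used here, no genome was used for sequences, and 2 identifiers are printed.

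Named regions follow a fixed rule: per comparison, the 5 largest losses, the 3 smallest p-values, the 2 longest, the 3 models with most members, and the 3 largest losses of at least median length with no level at 0 or 100%. In addition come the 5 largest summed losses with equal ends in both tables and the 5 largest CHG losses that overlap a CG region. Regions named more than once are described once. The members, lists and comparisons were chosen with earlier results of these data known. The functions for overlap, joining, position and intervals were tested on simulated data. Alternatives were limits on difference, p and length, joining of overlapping entries, 1 value per model, leaving out long models or levels at 0 or 100%, a stricter overlap and a log2 ratio. Python 3.11.15, pandas 2.3.3, NumPy 2.4.6, SciPy 1.17.1 and matplotlib 3.10.9 were used.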

Additional observations from a re-analysis of the deposited data

How the results depend on the processing

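Of 80 alternative values over 16 results, 61 stayed within the reported value's interval, or for a count within 1.5 times. Another 19 moved, log2 ratios being counted so for their other scale, and 0 reversed a direction whose interval excluded 0. Members were chosen as losses, and counts and shares have no sign, so only the contrasts by model length could reverse. The véraison contrast of models of 20 kb or more with those under 5 kb was -0.0984 percentage points (-4.40 to 4.21). It changed sign in its alternatives, from 0.229 to 2.80, within that interval. Keeping regions of at least the median absolute difference moved the median difference to -31 (véraison) and -32 (maturity) percentage points and the numbers to 820 and 1075, as this filter drops small losses by construction. Keeping regions of at least the median length gave 1164 and 1498 losses and a véraison median of -19.5. As log2 ratios with a pseudocount of 0.01 on the fraction, the medians were -1.18 and -1.19. The maturity share of losses in gene models was 73.5% among larger differences, 70.5% with the p limit divided by 10 and 73.4% in longer regions. For maturity against véraison the share, 54.9% as reported, was 60.8% among larger differences and 57.0% in longer regions. Without models of 40 kb or more it was 53.0%. Overlap with CG at maturity was 6.70% without those models, and overlap with CHH was 2.577 and 2.003% in longer regions. The excess of losses in models of 20 kb or more over those under 5 kb at maturity, 21.9 percentage points, was 17.1 among larger differences. This contrast and its alternatives, and the restriction to starting levels of 20 to 60%, were chosen after seeing the data. The cause of these shifts was not tested. No paired analysis was possible because each stage had 1 library. Depth is unknown, so how firmly single regions are measured cannot be stated.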
